A study of Homo sapiens with 18 samples.

Results

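Genes that are copied into mRNA mainly while a cell replicates its DNA or divides were followed in the human neuroblastoma cell line SH-SY5Y 15 min after an opioid receptor ligand was added. The 44 genes were taken from a list of cell cycle symbols, matched to the deposited table's Ensembl gene IDs through GENCODE 29. The rule uses no measured value, but the genes were chosen with earlier results of these data known. All 44 were present among the 58735 genes of the table and all passed the low-count filter that left 23231 genes to test. By the phase in which each gene product acts or peaks, 22 were S phase genes, 18 were mitosis genes and 4 were regulators of G1.

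A cell enters the cycle in G1, when D-type and E-type cyclins with their kinases release E2F transcription factors from the RB family of repressors. E2F then switches on the genes that license and copy DNA and supply its nucleotides, and later B-MYB (MYBL2) and FOXM1, acting with the MuvB complex, switch on the genes of mitosis. In cells that leave the cycle, the DREAM complex and the CIP/KIP inhibitors hold both waves down, and retinoic acid is known to slow the division of SH-SY5Y cells while they take on a neuron-like state. A summed level over many cells does not tell fewer cycling cells from less of each mRNA per cell.

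Every library came from cells that had been kept for 7 days in 10 µM all-trans retinoic acid in medium low in serum and then exposed for 15 min. The groups were morphine at 193 nM, metamorphine at 169 nM, TRV130 at 200 nM, beta-endorphin at 200 nM, naloxone (an opioid receptor antagonist) at 200 nM and water (Control), with 3 libraries each. All 18 libraries are of 1 wild type cell line. Whether replicates were grown as separate cultures is not stated in the labels, so p-values measure only how these libraries spread, and that spread may be technical. Each library name ends in 1 of 3 codes, whose meaning the labels do not give. They are called C (5 libraries, as in Control_14.04), B (6 libraries, as in Control_1109) and A (7 libraries, as in Control_0409). Every code has a library of every treatment but for TRV130, which lacks code C. TRV130 3 is of code B, and TRV130 1 and 2 were read as code A. The names of TRV130 1 and 2 have an extra digit directly before the ending of code A. Their place in code A is thus a reading that the labels do not state, and fits without the TRV130 libraries are given below.

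Promoter sequences show how the S phase and mitosis genes differ in the letters that E2F and MuvB complexes are known to bind, and 4 are printed for genes described below. They are RefSeq windows of GRCh38.p14, running from 250 bases before a gene's start to 50 after it, given 5′ to 3′ on the gene's strand. Capitals mark 3 kinds of word, searched on both strands: the cell cycle genes homology region or CHR (TTTGAA or TTCGAA), the CCAAT box (CCAAT), and E2F words (TTTCCCGC, TTTCGCGC, TTTGCCGC or TTTGGCGC). No words overlapped in these 4 windows. CDK1, the kinase that drives mitosis, lies at chr10:60778228-60778527 on the + strand, and CCNB2 (cyclin B2), a partner of that kinase, at chr15:59104896-59105195 on the + strand. PCNA, the sliding clamp of the replication fork, lies at chr20:5126573-5126872 on the - strand, and E2F1, the transcription factor, at chr20:33686336-33686635 on the - strand.
CDK1: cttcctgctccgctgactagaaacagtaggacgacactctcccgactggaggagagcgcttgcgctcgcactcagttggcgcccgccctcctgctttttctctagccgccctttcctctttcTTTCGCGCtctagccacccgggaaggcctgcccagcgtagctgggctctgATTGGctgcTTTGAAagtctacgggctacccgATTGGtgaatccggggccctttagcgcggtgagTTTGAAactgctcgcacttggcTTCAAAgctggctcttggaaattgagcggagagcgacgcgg
CCNB2: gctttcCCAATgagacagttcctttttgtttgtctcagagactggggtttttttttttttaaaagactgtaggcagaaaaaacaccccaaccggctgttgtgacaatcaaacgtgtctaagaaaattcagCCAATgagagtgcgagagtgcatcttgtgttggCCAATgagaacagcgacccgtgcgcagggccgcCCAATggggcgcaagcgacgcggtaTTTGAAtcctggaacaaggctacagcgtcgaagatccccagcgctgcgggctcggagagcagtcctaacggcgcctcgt
PCNA: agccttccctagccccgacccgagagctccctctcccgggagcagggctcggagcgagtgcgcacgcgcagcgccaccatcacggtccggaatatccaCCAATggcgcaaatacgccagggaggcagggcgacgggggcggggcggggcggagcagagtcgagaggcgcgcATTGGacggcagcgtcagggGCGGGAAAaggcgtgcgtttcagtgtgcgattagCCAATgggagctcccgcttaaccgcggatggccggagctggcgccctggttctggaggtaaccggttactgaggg
E2F1: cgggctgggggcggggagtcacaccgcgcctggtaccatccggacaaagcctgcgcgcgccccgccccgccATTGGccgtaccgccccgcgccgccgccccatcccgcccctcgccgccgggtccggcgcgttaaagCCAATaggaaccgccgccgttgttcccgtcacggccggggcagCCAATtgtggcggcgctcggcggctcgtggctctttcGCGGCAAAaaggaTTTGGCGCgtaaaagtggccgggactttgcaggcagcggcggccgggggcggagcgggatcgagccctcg

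The CDK1 window held 3 CHR words, 2 CCAAT boxes and 1 E2F word, and the CCNB2 window held 1 CHR word, 4 CCAAT boxes and 0 E2F words. PCNA had 0 CHR words, 3 CCAAT boxes and 1 E2F word, and E2F1 had 0, 3 and 2. CDK1 and PCNA have 2 windows each, and the one with the most marked words was printed. Only 1 of the 2 PCNA windows held an E2F word. Windows were matched for 36 of the 44 genes (50 windows, some genes having several starts) and not for MCM4, MCM5, FOXM1, CCNE2, CCND1, AURKA, BIRC5 and CDKN1C. A CHR word was found in 13 of 20 windows of mitosis genes (65%) and in 2 of 28 windows of S phase genes (7.14%), against 16.4% of all 35116 windows in the table. E2F words were found in 2 of 20 mitosis windows (10%) and 14 of 28 S phase windows (50%), against 3.31% of all windows. Both of those mitosis windows belong to CDK1. CCAAT boxes were frequent in both, in 16 of 20 mitosis windows (80%) and 19 of 28 S phase windows (67.9%), against 34.6% of all windows. A match is a description of these letters and not evidence of binding.

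The deposited table held raw read counts, with 21211449 to 33123855 counts per library. Levels of the 44 genes are given as CPM, a gene's share of the library's counts, scaled by TMM effective library size, while sums over marker lists are CPM of the total count with no TMM scaling. Mitochondrially encoded genes took 4.66% to 17.7% of the counts. Control 1 stood apart from the other libraries on the second principal component of all genes. Its relation of level to transcript length, to which TRV130 2 came near, is described below with the genes it touches. The noradrenergic neuroblastoma genes summed to 4614 to 5268 CPM in code C, 5252 to 6423 CPM in code B and 4910 to 5747 CPM in code A, and PHOX2A, a defining transcription factor, averaged 1572 CPM, so the defining genes of the line were present. Markers of Schwann, epithelial, immune and endothelial cells summed to 12.09, 13.15, 11.23 and 5.22 CPM in Control 1, the highest library for each, against at most 10.2, 5.79, 9.23 and 2.07 CPM in the other 17. Control 1 also held 20888 reads of the 3647 coding genes whose median count was 0, against 276 to 3074 in the others. The part of these in the results was not tested.

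All of the genes were expressed in every library, and the lowest count was 127, for CDC25C in 1 library. To compare genes with one another, levels were divided by exon length (RPKM, the CPM per kilobase). The median level of the 44 genes was 10.1 RPKM, against 5.03 RPKM over 14969 coding genes tested, and 34 of the 44 lay above that median. CCND1 (cyclin D1), which couples growth signals to G1, had by far the highest level at 195.8 RPKM. It was followed by MCM7, a subunit of the replicative helicase, at 79.4 RPKM, by PCNA at 78.1 RPKM and by the CDK inhibitor CDKN1A (p21) at 50.4 RPKM. The lowest levels were those of the kinetochore motor CENPE at 1.22 RPKM, the checkpoint kinase BUB1 at 2.12 RPKM and CCNE2 (cyclin E2) at 2.25 RPKM. Thus the G1 cyclin and 2 of 3 CIP/KIP inhibitors, CDKN1A and CDKN1B (37.6 RPKM), ranked among the 6 highest levels per length, beside MYBL2 at 41.5 RPKM, while the mitotic cyclins and kinases lay lower.

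**Figure D1:**
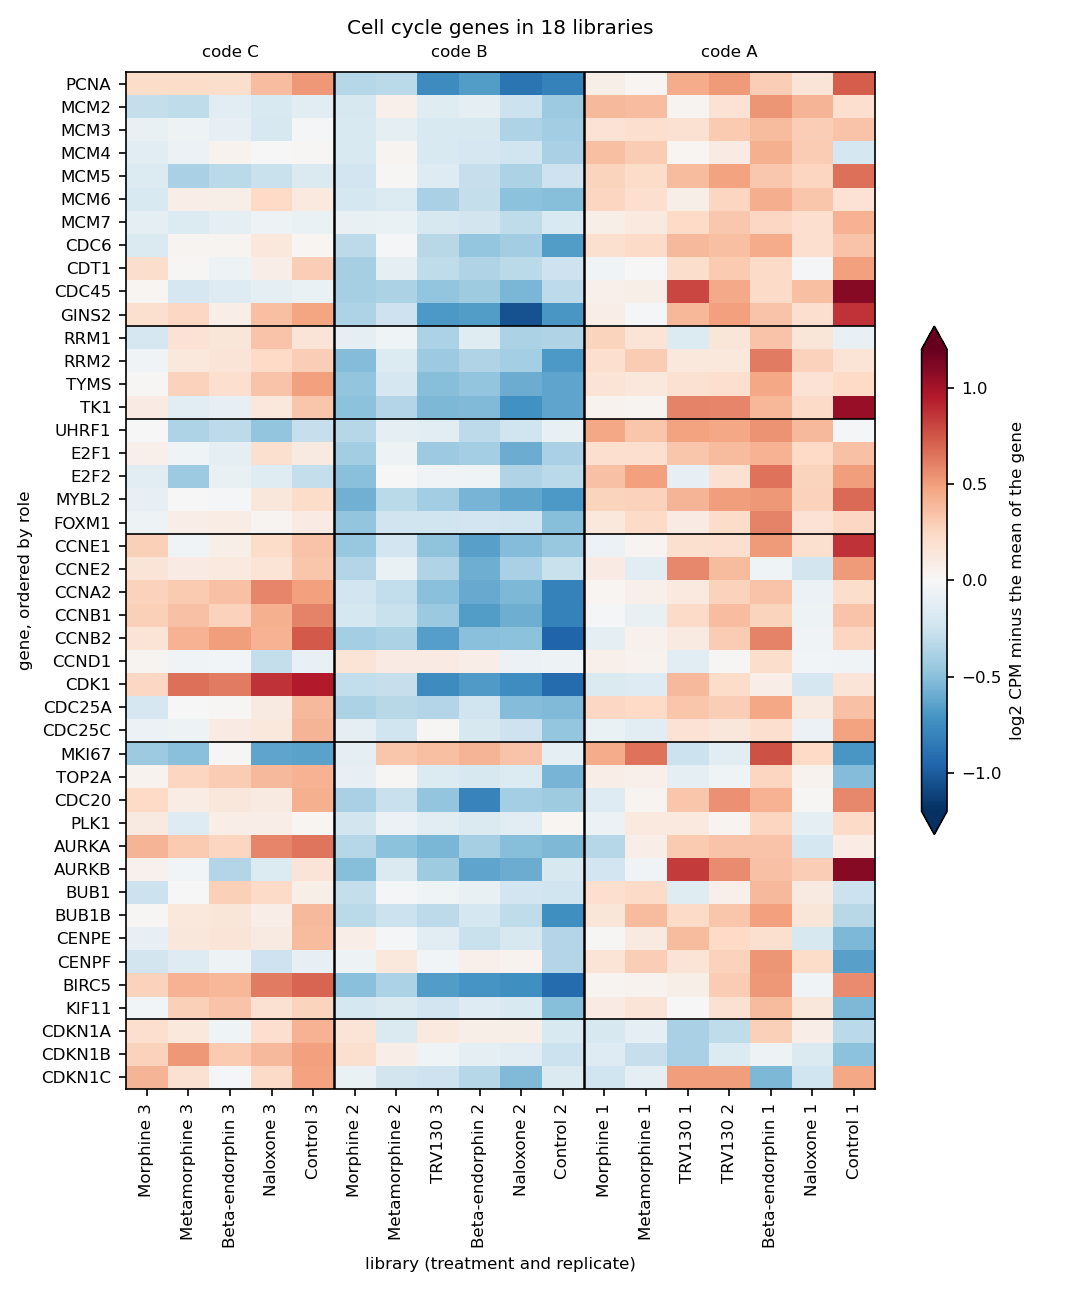
Each cell is the log2 CPM of 1 of the 44 genes (rows, ordered by role and separated by lines) in 1 of 18 libraries (columns, grouped by code C, B and A), minus the gene's mean over all libraries; red is above that mean and blue below. Most rows are blue in the 6 libraries of code B, the mitotic rows from CCNA2 to CDK1 are red in the 5 libraries of code C, and no treatment forms a band across the codes.

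Differences between the library codes passed the test in most of the cell cycle genes, and differences between treatments in 0 of them. With the treatment in the model, the edgeR quasi-likelihood test with Benjamini-Hochberg adjustment over all tested genes called 37 of the 44 (84.1%) for any difference among the 3 codes at an adjusted p under 0.05, against 57.8% of all genes tested. The 7 that did not pass were CCND1, CDC25C, PLK1, BUB1, CENPE, CENPF and CDKN1A. In a principal component analysis of the 44 genes alone, the first component held 66.3% of the variance and the second 15.4%. The mean log2 CPM of the S phase genes lay between 5.58 and 5.76 in code C, between 5.14 and 5.48 in code B and between 5.80 and 6.07 in code A, with no overlap between any 2 codes. That of the mitosis genes lay between 4.79 and 5.07 in code C, between 4.22 and 4.57 in code B and between 4.75 and 5.13 in code A, so codes C and A overlapped and code B was lowest. The code cannot be told apart from whatever differed between the libraries that carry it.

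In code B, genes of S phase and mitosis were lower than in code A almost throughout. Of the 44 genes, 33 fell and 0 rose in code B against code A, a share of 75% against 26.9% of all genes called (15.5% lower, 11.5% higher). The median log2 fold change was -0.57, against 0.02 over all genes tested. In 25 genes every library of code B lay below every library of code A, as did 4.92% of all genes, and in 0 genes above it (3.3% of all genes). All 22 S phase genes fell (median -0.63), 11 of 18 mitosis genes fell (median -0.55) and 0 of the 4 G1 regulators passed. The count over all genes moved more than that of the 44: without the TRV130 libraries 28 of the 44 fell, against 8.12% of all genes called, and with only Control 2, Naloxone 2 or TRV130 3 left out 32, 33 or 31 fell, against 14%, 16.8% or 10.5% of all genes.

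In code C, most of the genes were higher than in code B. Of the 44, 30 rose and 1 fell in code C against code B, a share of 70.5% against 54.8% of all genes called (26.9% higher, 27.8% lower). The median log2 fold change was 0.42, against -0.04 over all genes tested, and in 24 genes the libraries of code C all lay above those of code B, as did 22.4% of all genes. The risers were 15 of 22 S phase genes (median 0.40), 13 of 18 mitosis genes (median 0.48) and 2 of 4 G1 regulators. The one gene that fell was MKI67, which encodes the proliferation marker Ki-67.

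Code C against code A gave a mixed result. Of the 44 genes, 4 rose and 11 fell, a share of 34.1% that is close to the 33.2% of all genes called (16.1% higher, 17.1% lower), and the median log2 fold change was -0.06, against -0.02 over all genes. Without the low-count filter the split was 8 higher and 8 lower. S phase and mitosis genes had different counts: 0 S phase genes rose and 9 of 22 fell (median -0.25), whereas 3 mitosis genes rose and 2 of 18 fell (median 0.10). With the length and GC offset described below, 1 S phase gene rose and 14 fell (median -0.27). Of the mitosis genes, 0 then rose and 4 fell (median -0.05), beside 14.8% higher and 18.4% lower of all genes. The mitosis mean minus the S phase mean, on the log2 scale, was -0.81 to -0.67 in code C, -0.96 to -0.73 in code B and -1.29 to -0.90 in code A, so every library of code C lay above every library of code A. In 8 S phase genes and 0 mitosis genes all libraries of code C lay below all of code A, as they did in 6.16% of all genes. The reverse held for 1 of the 44, CDKN1B, and for 7.43% of all genes. Without Naloxone 3, 12 of the 44 were called, against 20.1% of all genes. The 3 code comparisons share libraries, so their values stand side by side and are not independent of one another.

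**Figure D2:**
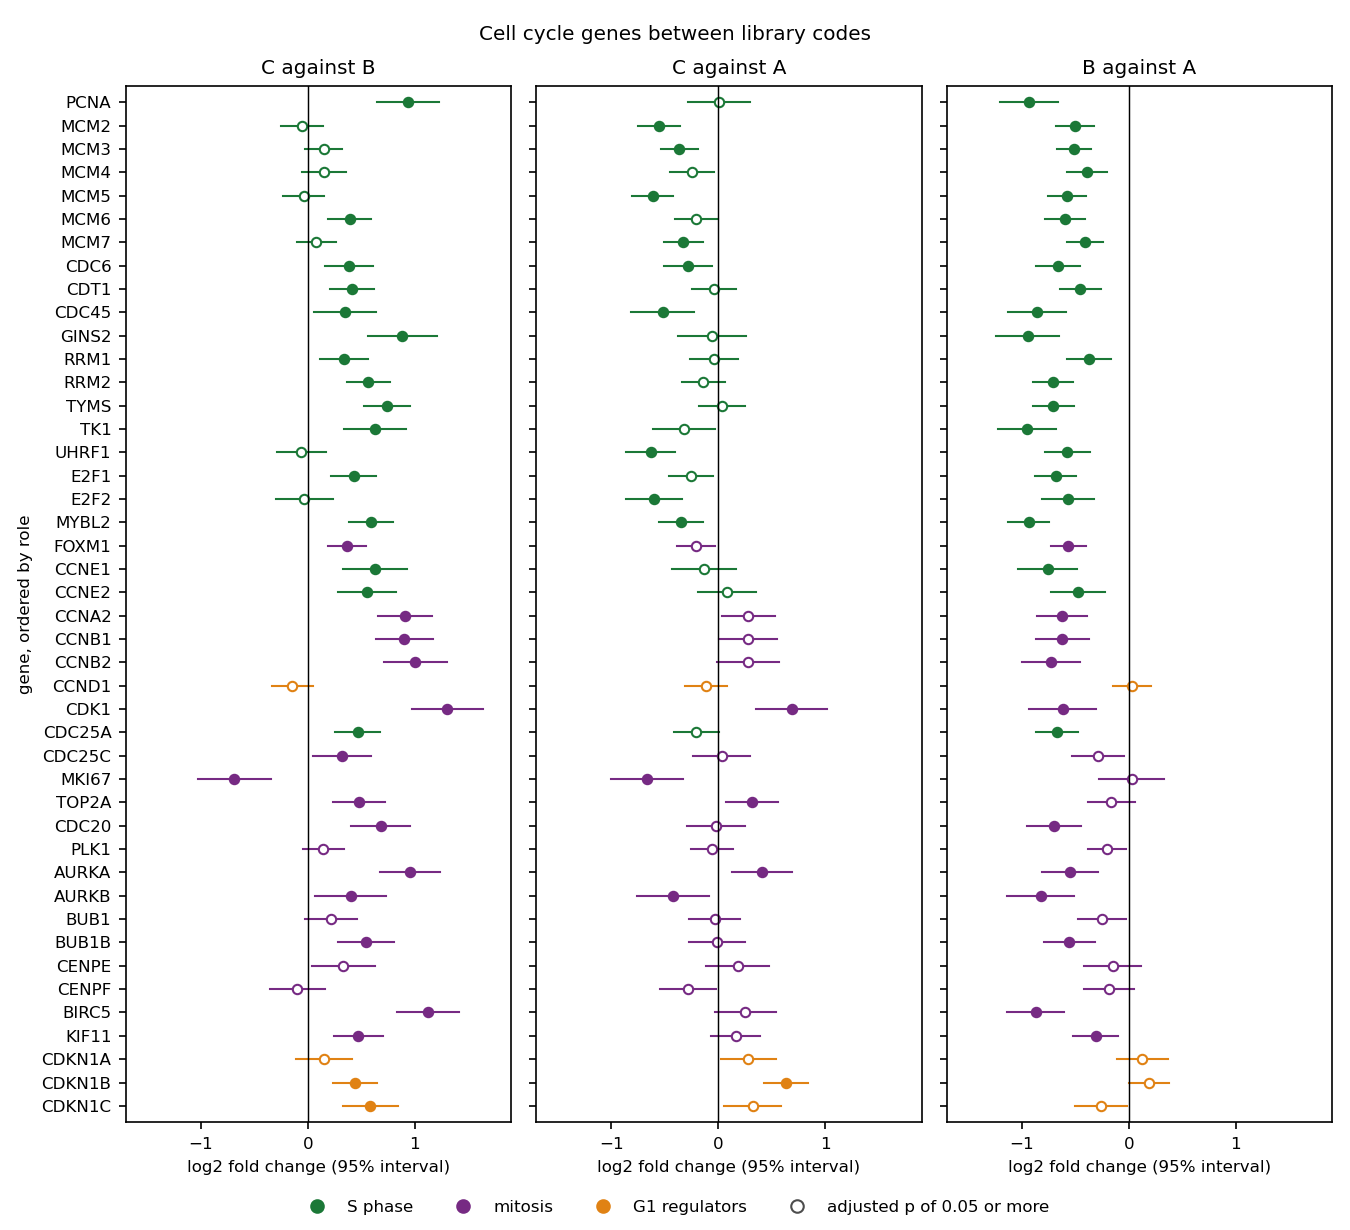
Log2 fold changes of the 44 genes (rows, ordered by role) for code C against B (left), C against A (centre) and B against A (right), with 95% intervals from the edgeR fit; filled points passed an adjusted p under 0.05, and colour gives the phase. In the right panel all 22 S phase points are filled and below 0, in the left panel 30 filled points lie above 0 and MKI67 alone is filled below 0, and in the centre panel the filled points lie on both sides.

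Transcript length and GC content moved with the code differences to unlike degrees and are given beside them. Over the 44 genes, the log2 fold change and the length of the longest coding transcript had a Spearman correlation of -0.56 for code C against B, -0.30 for C against A and 0.47 for B against A. Over 10519 coding genes averaging 10 CPM or more these were -0.53, -0.26 and 0.62, a description over genes that share the same 18 libraries. With the GC content of that transcript, the correlations were -0.18, -0.43 and -0.21 over the 44 genes, in the same order. Over the coding genes they were -0.25, -0.48 and -0.11. For code C against A, the relation to GC content was stronger than that to length. A fit with a per-library offset for transcript length and GC content, added after the data were seen and run on 14714 coding genes, kept 33 of 33 calls of code B against A and 21 of 31 of code C against B, and 10 of 15 of code C against A. With it, 37 of the 44 genes fell and 1 rose in code B against A, against 16.3% lower and 15.7% higher of all genes, and 24 rose and 0 fell in code C against B, against 24.0% higher and 28.5% lower. In code C against A 3 rose and 18 fell, against 14.8% higher and 18.4% lower. For single genes below, the offset value is given where a call ended or began, or where the log2 fold change of a kept call moved by over 1.5 times.

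Replication licensing and fork genes formed the first role. All 11 fell in code B against code A, 6 of 11 rose in code C against B, and 6 of 11 fell in code C against A. With the offset these were 11 lower, 5 higher, and 8 lower with 1 higher. PCNA stood at 127, 127, 126, 141 and 156 CPM in the morphine, metamorphine, beta-endorphin, naloxone and Control libraries of code C. In code B its lowest, median and highest levels were 59.2, 66.5 and 87.0 CPM, and in code A 111, 134 and 181 CPM. The libraries of code B lay wholly below both other codes, which overlapped. PCNA therefore had a log2 fold change of 0.94 in code C against B (SE 0.14, edgeR adjusted p = 4.81e-05) and of -0.93 in code B against A (SE 0.13, edgeR adjusted p = 0.000419). With the length and GC offset these became 0.15 (edgeR adjusted p = 0.0892) and -0.56 (edgeR adjusted p = 2.98e-05), and code C against A, 0.01 without it, became -0.41.

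GINS2, a subunit of the GINS complex that joins the MCM helicase, followed the same order. Its levels in code C were 27.7, 28.7, 25.5, 31.1 and 33.6 CPM in the same order of treatments, against a lowest, median and highest of 11.7, 15.1 and 20.3 CPM in code B and 23.8, 30.7 and 44.2 CPM in code A. Code B again lay below both other codes without overlap, with a log2 fold change of 0.88 for code C against B (SE 0.15, edgeR adjusted p = 0.000159) and -0.95 for B against A (SE 0.14, edgeR adjusted p = 0.000664). GINS2 shares its locus with GSE1 on the other strand, which averaged 4153 counts against 673 for GINS2, and reads from the 2 genes cannot be told apart where they overlap.

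MCM5, a subunit of the MCM2-7 helicase, showed another order. Its levels in code C were 62.8, 53.5, 56.2, 58.5 and 62.2 CPM, against 54.0, 59.5 and 70.9 CPM (lowest, median, highest) in code B and 82.1, 88.2 and 111 CPM in code A. Codes C and B overlapped, and both lay wholly below code A. The log2 fold change was -0.61 for code C against A (SE 0.09, edgeR adjusted p = 0.000369) and -0.57 for code B against A (SE 0.08, edgeR adjusted p = 0.000583), while code C against B was -0.04 (SE 0.09, edgeR adjusted p = 0.73). The helicase subunit MCM2 had the same order, with -0.55 for code C against A (-0.33 with the offset) and -0.50 for B against A. MCM3 and MCM7, of the same ring, fell in both codes as well, by 0.36 and 0.33 in code C and by 0.51 and 0.41 in code B on the log2 scale, each against code A. MCM4 and MCM6 fell by 0.39 and 0.60 in code B against A, and their values of -0.25 and -0.21 for code C against A passed only with the offset (-0.24 and -0.40). The call of MCM7 for code C against A ended with the offset (-0.16) and without the low-count filter (-0.28). The loader proteins CDC6 and CDT1 and the helicase activator CDC45 fell in code B against A by 0.66, 0.45 and 0.86 on the log2 scale. In code C against B, the offset ended the calls of MCM6 (0.39, and 0.17 with it) and CDC45 (0.34, and 0.002 with it), and calls began for MCM4 (0.18) and MCM7 (0.20). CDT1 went to 0.71 in that comparison, against 0.41 without the offset, and passed in code C against A with it (0.25).

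All 4 genes of nucleotide synthesis fell in code B against A, all 4 rose in code C against B, and 0 of 4 passed in code C against A. With the offset all 4 still fell in code B against A, but 2 of 4 rose in code C against B (RRM2 and TK1), and 3 of 4 fell in code C against A (RRM1 at -0.29, RRM2 at -0.25 and TK1 at -0.25). TYMS (thymidylate synthase, which makes dTMP) was at 83.4, 99.5, 94.5, 105 and 116 CPM in code C, against 53.1, 58.6 and 71.7 CPM in code B and 89.8, 93.3 and 114 CPM in code A (lowest, median, highest). Its log2 fold change was 0.74 for code C against B (SE 0.10, edgeR adjusted p = 2.68e-05) and -0.70 for code B against A (SE 0.09, edgeR adjusted p = 0.000308). With the offset TYMS stood at 0.20 for code C against B (edgeR adjusted p = 0.056) and at -0.40 for B against A, and its reads cannot be told apart from those of ENOSF1 and TYMSOS on the other strand.

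RRM2, the S phase subunit of ribonucleotide reductase, was at 55.9, 62.7, 63.9, 67.9 and 70.4 CPM in code C, against 35.6, 42.9 and 51.3 CPM in code B and 62.9, 65.99 and 88.8 CPM in code A. Code B did not overlap with either of the other codes. The coding gene AC007240.1, which averaged 729 counts against 1572 for RRM2, shares this locus on the same strand. RRM2 had a log2 fold change of 0.57 for code C against B (SE 0.10, edgeR adjusted p = 0.00016) and -0.71 for code B against A (SE 0.09, edgeR adjusted p = 0.00023). RRM1, the large subunit of the same enzyme, moved less, with 0.34 for code C against B and -0.37 for B against A, and the offset brought the first to -0.02. The calls of RRM1 also ended without Control 3 (0.28 for code C against B) and without the TRV130 libraries (-0.36 for B against A). The salvage kinase TK1 was at 45.5, 39.0, 39.7, 46.5 and 53.4 CPM in code C, against 25.6, 29.3 and 33.2 CPM in code B and 43.5, 56.1 and 88.0 CPM in code A. Code B lay below both other codes, with -0.95 against A (SE 0.13, edgeR adjusted p = 0.000369) and with 0.63 for code C against B (SE 0.14, edgeR adjusted p = 0.00114).

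The 5 transcription factor and chromatin genes all fell in code B against A, 3 of 5 rose in code C against B, and 3 of 5 fell in code C against A. MYBL2 was at 103, 111, 109, 121 and 129 CPM in code C, against 68.5, 74.6 and 88.4 CPM in code B and 133, 147 and 177 CPM in code A. The 3 codes did not overlap, with B lowest and A highest. MYBL2 had a log2 fold change of -0.94 for code B against A (SE 0.09, edgeR adjusted p = 7.15e-05), 0.59 for C against B (SE 0.10, edgeR adjusted p = 0.000108) and -0.35 for C against A (SE 0.10, edgeR adjusted p = 0.0119), which became -0.17 (edgeR adjusted p = 0.149) with the offset.

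E2F1 was at 66.2, 60.9, 58.4, 72.3 and 68.3 CPM in code C, against 41.8, 47.5 and 60.6 CPM in code B and 72.9, 79.7 and 84.4 CPM in code A. Its log2 fold change was -0.68 for code B against A (SE 0.09, edgeR adjusted p = 0.000342) and 0.43 for code C against B (SE 0.10, edgeR adjusted p = 0.00165). FOXM1 was at 62.5, 68.7, 69.0, 66.7 and 69.7 CPM in code C, against 45.6, 55.1 and 55.5 CPM in code B and 69.5, 75.9 and 98.1 CPM in code A. Code B was lowest in both genes; for E2F1 its highest library reached into the range of code C, and for FOXM1 it stood apart. FOXM1 had a log2 fold change of -0.57 for code B against A (SE 0.08, edgeR adjusted p = 0.000381) and 0.36 for code C against B (SE 0.08, edgeR adjusted p = 0.00185), and it overlaps ITFG2 and RHNO1 on the other strand. E2F2, a second activating E2F, and UHRF1, which recruits DNA methylation to new strands, had the order of MCM5, with -0.60 and -0.63 for code C against A, -0.57 each for code B against A, and -0.03 and -0.06 for code C against B. For E2F2 that order rested on the fit without the offset: with it code C against B was 0.38 (edgeR adjusted p = 0.0114) and code C against A -0.32 (edgeR adjusted p = 0.0404).

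Among the cyclins, CDK1 and the CDC25 phosphatases, 7 of 9 fell in code B against A, 8 of 9 rose in code C against B, and 1 of 9 rose in code C against A. CDK1 was at 41.6, 55.4, 54.1, 63.9 and 68.0 CPM in the morphine, metamorphine, beta-endorphin, naloxone and Control libraries of code C. Its lowest, median and highest levels were 18.5, 21.3 and 28.96 CPM in code B and 30.5, 37.0 and 45.9 CPM in code A. Code B lay below both others, and code C overlapped with code A only at its morphine library. CDK1 had a log2 fold change of 1.303 for code C against B (SE 0.16, edgeR adjusted p = 1.55e-05), 0.68 for C against A (SE 0.16, edgeR adjusted p = 0.00436) and -0.62 for B against A (SE 0.15, edgeR adjusted p = 0.008). With the offset the 3 values became 0.41, 0.10 and -0.31, and code C against A no longer passed (edgeR adjusted p = 0.314). Without the TRV130 libraries code B against A was -0.49 and did not pass (edgeR adjusted p = 0.0663).

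CCNA2 (cyclin A2, which acts in S phase and early mitosis) was at 33.5, 34.4, 35.3, 41.6 and 38.8 CPM in code C, against 15.7, 19.2 and 23.5 CPM in code B and 26.3, 29.9 and 35.0 CPM in code A. CCNB2 was at 18.6, 22.3, 23.5, 22.3 and 27.8 CPM in code C, against 8.50, 11.8 and 12.8 CPM in code B and 15.4, 17.98 and 25.1 CPM in code A. In both cyclins code B stood apart below and codes C and A overlapped. The log2 fold changes of CCNA2 were 0.91 for code C against B (SE 0.12, edgeR adjusted p = 2.3e-05) and -0.63 for B against A (SE 0.11, edgeR adjusted p = 0.00176), and those of CCNB2 were 1.01 (SE 0.14, edgeR adjusted p = 3.04e-05) and -0.73 (SE 0.13, edgeR adjusted p = 0.00176). CCNB1 (cyclin B1) had 0.90 and -0.62, the second being -0.38 with the offset. With the offset, code C against B was 0.46 for CCNA2, 0.55 for CCNB2 and 0.30 for CCNB1, all still past the threshold. CCNA2 overlaps EXOSC9 on the other strand.

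CCNE1 and CCNE2, the E-type cyclins of the G1 to S transition, fell in code B against A by 0.76 and 0.48 on the log2 scale and rose in code C against B by 0.63 and 0.55. With the offset CCNE1 was at 0.32 and CCNE2 at 0.04 for code C against B, and CCNE2 passed in code C against A (-0.32). Its call for code B against A ended without TRV130 3 (-0.38) and without all TRV130 libraries (-0.37). CCNE2 overlaps INTS8 and NDUFAF6 on the other strand, which averaged 849 and 420 counts against 260.5 for CCNE2. CDC25A, the phosphatase that activates CDK2, had -0.67 and 0.47 in the same 2 comparisons. CDC25C, which activates CDK1, had 0.32 for code C against B (edgeR adjusted p = 0.0436) and -0.17 with the offset, and that call ended as well without Control 2, Control 3, Metamorphine 3, Beta-endorphin 2, Beta-endorphin 3, Naloxone 2 or Naloxone 3 (0.20 to 0.37). The call of CDC25C also ended with RLE scaling (0.30), with DESeq2 (0.30), without the low-count filter (0.39) and with coding genes alone (0.28). CDC25C shares its locus with FAM53C on the other strand, whose counts were higher. CCND1 was at 965, 913, 922, 771 and 884 CPM in code C, against 897, 1003 and 1059.7 CPM in code B and 861, 952 and 1088 CPM in code A, and the codes overlapped throughout. Its 3 log2 fold changes lay between -0.14 and 0.03, with 95% intervals of -0.34 to 0.05 (C against B), -0.31 to 0.08 (C against A) and -0.15 to 0.21 (B against A).

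**Figure D3:**
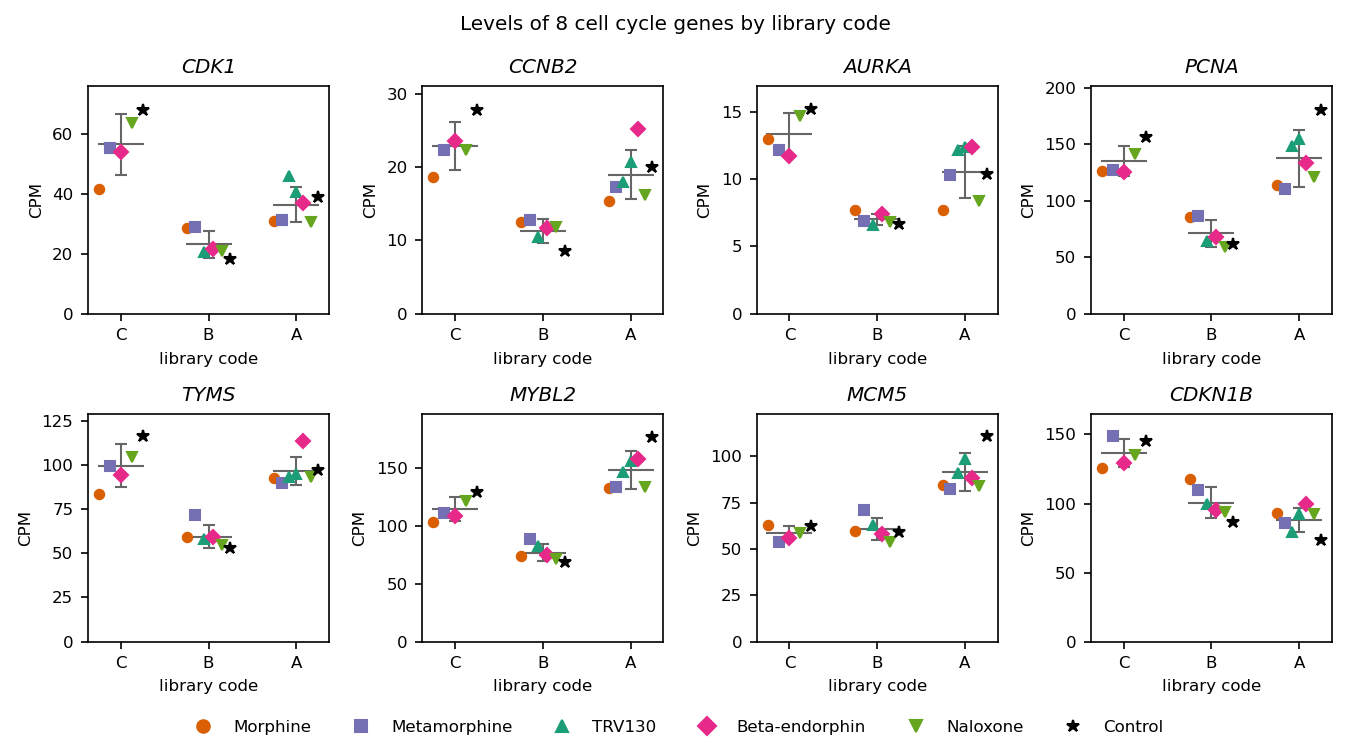
CPM (vertical axes, from 0) of 8 genes in each library, by library code C, B and A; symbols give the treatment, the horizontal line is the mean and the bar 1 SD over 5, 6 and 7 libraries. CDK1, CCNB2 and AURKA are highest in code C, PCNA, TYMS and MYBL2 are lowest in code B, MCM5 is highest in code A, and CDKN1B is highest in code C.

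Mitotic kinases, checkpoint and motor genes were the least uniform role. Of 12, 6 fell in code B against A, 7 rose and 1 fell in code C against B, and 2 rose and 2 fell in code C against A. With the offset 10 fell in code B against A, 6 rose and 0 fell in code C against B, and 0 rose and 4 fell in code C against A. BIRC5 (survivin, of the chromosomal passenger complex) was at 52.98, 58.3, 57.5, 67.3 and 70.9 CPM in code C, against 22.9, 27.0 and 33.6 CPM in code B and 42.4, 45.7 and 64.8 CPM in code A. Its log2 fold change was 1.12 for code C against B (SE 0.14, edgeR adjusted p = 1.61e-05) and -0.87 for B against A (SE 0.13, edgeR adjusted p = 0.000578), and neither the offset nor any library left out ended these calls. AURKA (Aurora kinase A, of the spindle poles) was at 13.0, 12.2, 11.7, 14.7 and 15.2 CPM in code C, against 6.62, 6.84 and 7.67 CPM in code B and 7.68, 10.4 and 12.4 CPM in code A. Code B lay below both other codes in these 2 genes, although for AURKA its highest library nearly met the lowest of code A.

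AURKA had a log2 fold change of 0.96 for code C against B (SE 0.13, edgeR adjusted p = 3.41e-05), 0.41 for C against A (SE 0.13, edgeR adjusted p = 0.0288) and -0.55 for B against A (SE 0.12, edgeR adjusted p = 0.00669). With the offset code C against B was 0.50 and code C against A 0.17, the second no longer passing (edgeR adjusted p = 0.232). Code C against A also ended without Control 3, Morphine 1, Naloxone 1 or Naloxone 3, and code B against A without the TRV130 libraries (-0.45, edgeR adjusted p = 0.0584). With the offset code B against A was -0.33. CDC20, which activates the anaphase-promoting complex, was at 19.6, 17.6, 18.2, 17.9 and 22.3 CPM in code C, against 9.48, 12.3 and 13.7 CPM in code B and 14.9, 20.9 and 24.7 CPM in code A. Code B lay below both others. CDC20 had 0.68 for code C against B (SE 0.13, edgeR adjusted p = 0.00039) and -0.70 for B against A (SE 0.12, edgeR adjusted p = 0.00157), which the offset brought to 0.42 and -0.43.

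MKI67, named after its values were seen, went another way. It was at 53.8, 51.5, 73.5, 46.8 and 46.6 CPM in code C, against 67.2, 92.1 and 96.5 CPM in code B and 44.9, 85.9 and 124 CPM in code A. Code C was low, but it overlapped with both other codes. The log2 fold change was -0.69 for code C against B (SE 0.16, edgeR adjusted p = 0.0019) and -0.66 for code C against A (SE 0.16, edgeR adjusted p = 0.00556), while code B against A was 0.03. MKI67 has the longest coding transcript of the 44, at 12678 bases, and with the offset code C against B was -0.09 (edgeR adjusted p = 0.35), code C against A -0.39 (edgeR adjusted p = 0.00145) and code B against A -0.30 (edgeR adjusted p = 0.00448).

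TOP2A, the topoisomerase that untangles chromosomes, rose in code C against B by 0.48 and in code C against A by 0.31, and the second call ended with the offset (0.09) and without any 1 of Control 1, 2 or 3, Metamorphine 1 or 3, TRV130 3, Beta-endorphin 2 or 3, or Naloxone 1 or 3 (0.17 to 0.36). AURKB, the kinase of the passenger complex, fell in code B against A by 0.82 (-0.45 with the offset), while its call for code C against A (-0.43) ended in every fit with 1 library left out except those without Morphine 1, Morphine 3 or Metamorphine 1 (-0.43 to -0.28). Its call for code C against B (0.40) ended with the offset (-0.10) and without Control 2, Morphine 3, Metamorphine 3, TRV130 3, Beta-endorphin 2, Naloxone 2 or Naloxone 3 (0.33 to 0.44). That call also ended with DESeq2 (0.38), with no treatment term (0.35), with coding genes alone (0.36) and without the TRV130 libraries (0.36). BUB1B, a checkpoint kinase homologue, and the spindle motor KIF11 fell in code B against A by 0.56 and 0.31 and rose in code C against B by 0.54 and 0.47, which the offset brought to 0.32 and 0.22. The fall of KIF11 did not pass without Control 2, TRV130 2, TRV130 3, Beta-endorphin 1 or Beta-endorphin 2 (-0.31 to -0.28). Nor did it pass without all TRV130 libraries (-0.29). PLK1, BUB1, CENPE and CENPF passed in none of the 3 comparisons, with log2 fold changes between -0.28 and 0.33. With the offset CENPF passed in code B against A (-0.42) and C against A (-0.31), CENPE in code B against A (-0.31) and BUB1 in code C against A (-0.26), as did TOP2A in code B against A (-0.24).

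Of the 3 inhibitors of cyclin-dependent kinases, 0 passed in code B against A, CDKN1B and CDKN1C rose in code C against B, and CDKN1B rose in code C against A. CDKN1B (p27) was at 126, 149, 129, 135 and 145 CPM in code C, against 86.8, 97.7 and 118 CPM in code B and 73.9, 92.2 and 99.5 CPM in code A. Code C lay above both other codes with no overlap. CDKN1B had a log2 fold change of 0.63 for code C against A (SE 0.10, edgeR adjusted p = 0.000401) and 0.44 for C against B (SE 0.10, edgeR adjusted p = 0.00113), which became 0.15 with the offset (edgeR adjusted p = 0.0958). With the offset, code B against A, at 0.19 without it, became 0.34 and passed.

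CDKN1C (p57) was at 45.4, 38.7, 33.7, 40.2 and 47.8 CPM in code C, against 23.7, 28.98 and 32.3 CPM in code B and 23.5, 31.5 and 48.4 CPM in code A. Code C lay above code B, and code A spanned both. CDKN1C had a log2 fold change of 0.58 for code C against B (SE 0.12, edgeR adjusted p = 0.00087). Its value for code C against A, 0.32, did not pass, and became 0.44 with the offset (edgeR adjusted p = 0.000483). CDKN1A, the p53 target p21, was at 175, 166, 146, 175 and 203 CPM in code C, against 134, 159 and 171 CPM in code B and 116, 133 and 185 CPM in code A. The codes overlapped, and its log2 fold changes of 0.15 (C against B), 0.28 (C against A) and 0.13 (B against A) did not pass.

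Other genes of the same pathways were counted from lists chosen with earlier results of these data known. Of all genes tested, 11.5% rose and 15.5% fell in code B against A, 26.9% rose and 27.8% fell in code C against B, and 16.1% rose and 17.1% fell in code C against A. Of 45 other S phase genes, 31 fell and 1 rose in code B against A, 29 rose and 4 fell in code C against B, and 4 rose and 11 fell in code C against A. Among them ASF1B, a histone chaperone, had -0.92 in code B against A, GMNN (geminin), the inhibitor of CDT1, had 0.97 in code C against B, and POLE, a replicative polymerase, had -0.92 in code C against B and -0.93 in code C against A. Of 63 other mitosis genes, 40 fell and 0 rose in code B against A, 45 rose and 4 fell in code C against B, and 16 rose and 7 fell in code C against A. UBE2C, the ubiquitin-conjugating enzyme of the anaphase-promoting complex, had -0.96 in code B against A and 1.28 in code C against B, and CKS2, a CDK subunit, had 1.75 in code C against B.

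Of 15 RB and DREAM regulators, 1 rose and 4 fell in code B against A, 7 rose and 0 fell in code C against B, and 5 rose and 0 fell in code C against A. These are 33.3%, 46.7% and 33.3% of the list, against 26.9%, 54.8% and 33.2% of all genes called in either direction. LIN52, a MuvB subunit, had 0.82 in code C against B. Of 14 tested G1 cyclins, kinases and INK4 inhibitors, 1 rose and 5 fell in code B against A, 10 rose and 1 fell in code C against B, and 5 rose and 1 fell in code C against A (42.9%, 78.6% and 42.9% called). CDKN2A, which encodes p16 and ARF, had -1.02 in code B against A and 1.12 in code C against B, and CDKN2C, an INK4 inhibitor, had 0.92 in code C against B and 0.68 in code C against A. Of 20 p53 target genes, 1 rose and 2 fell in code B against A, 10 rose and 1 fell in code C against B, and 11 rose and 0 fell in code C against A (15%, 55% and 55% called), with BTG2, an antiproliferative gene, at 0.99 in code C against A.

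Markers of the differentiated state moved with the codes as well. Retinoic acid target genes summed to 4146 to 5529 CPM in code C, 6119 to 9418 CPM in code B and 2935 to 6199 CPM in code A, where Control 1 was lowest. Of 10 tested, 7 rose and 0 fell in code B against A (CYP26A1, which breaks down retinoic acid, 0.64), and 2 rose and 6 fell in code C against B, beside the shares of all genes above. Neuronal genes summed to 2278 to 2398 CPM in code C, 1584 to 2138 CPM in code B and 1815 to 2633 CPM in code A, with 0 of 9 higher and 4 lower in code B against A and 5 higher and 0 lower in code C against B. Mitochondrially encoded genes took 4.66% to 9.47% of counts in code C, 8.02% to 15.7% in code B and 6.15% to 17.7% in code A. The part of these in the cell cycle differences was not tested.

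No effect of a ligand on any of the 44 genes passed the test. For morphine, metamorphine, TRV130, beta-endorphin and naloxone, each against Control, the edgeR quasi-likelihood test called 0 of 44 after Benjamini-Hochberg adjustment, where 0% of all 23231 genes were called, and it also called 0 of 44 for any difference among the 6 treatments (0 of 44 at an unadjusted p under 0.05, against 2.43% of all genes). DESeq2 called 0 of the 44 in each comparison. Its count over all genes is not given here, so that 0 cannot be set against a share. At an unadjusted p under 0.05 there were 0 of the 44 for morphine, 1 for metamorphine, 1 for TRV130, 3 for beta-endorphin and 0 for naloxone, against 4.06%, 7.83%, 1.85%, 9.46% and 6.65% of all genes. The smallest edgeR adjusted p among the 44 was 0.823 for morphine, 0.595 for metamorphine, 1 for TRV130, 0.513 for beta-endorphin and 0.655 for naloxone. These fits held no term for code or replicate number, so differences between codes stayed in their spread. The biological coefficient of variation was 0.309, against 0.182 with the code in the model. With the replicate number or the code as a block, described at the end, 0 of the 44 were called as well.

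Over the 44 genes the median log2 fold change was -0.11 for morphine, -0.04 for metamorphine, -0.004 for TRV130, 0.02 for beta-endorphin and -0.08 for naloxone, against -0.03, -0.04, -0.02, -0.04 and -0.04 over all genes tested. The lowest and highest single values were -0.68 and 0.47 for morphine, -0.54 and 0.70 for metamorphine, -0.35 and 0.49 for TRV130, -0.61 and 0.88 for beta-endorphin and -0.57 and 0.50 for naloxone. All 5 comparisons share the same 3 Control libraries. TRV130 lacks code C, so its values also hold differences between codes.

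**Figure D4:**
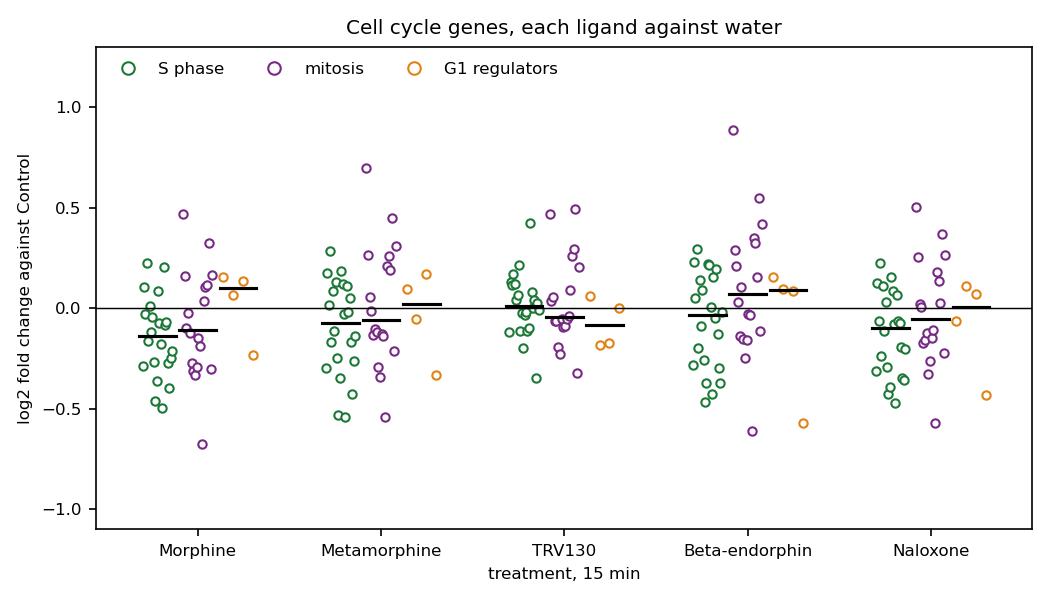
Log2 fold change of each of the 44 genes (1 circle per gene, coloured by phase) for each ligand against Control after 15 min, with a bar at the median of each phase. The circles are spread on both sides of 0 for every ligand, 0 passed an adjusted p under 0.05, and the highest circle is MKI67 with beta-endorphin.

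Among the genes with the smallest p for a treatment difference in each role, CENPF, a kinetochore protein, was at 103, 87.6 and 78.6 CPM in the morphine libraries, 112, 99.8 and 82.0 CPM with metamorphine, 102, 111 and 89.4 CPM with TRV130, 132, 94.96 and 87.5 CPM with beta-endorphin, 106, 94.2 and 76.7 CPM with naloxone, and 57.9, 71.4 and 85.4 CPM in Control. Control was lowest in its code A and code B libraries but not in code C, and its range overlapped with those of morphine, metamorphine and naloxone. CENPF had log2 fold changes of 0.45 for metamorphine (SE 0.20), 0.49 for TRV130 (SE 0.20) and 0.55 for beta-endorphin (SE 0.20), none of which passed the edgeR adjustment (adjusted p = 0.595, 1 and 0.513). With the replicate number as a block and the length and GC offset, the value for beta-endorphin was 0.13.

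MKI67 was at 99.2, 67.2 and 53.8 CPM with morphine, 115, 91.6 and 51.5 CPM with metamorphine, 60.8, 66.2 and 93.4 CPM with TRV130, 124, 96.5 and 73.5 CPM with beta-endorphin, 85.9, 92.5 and 46.8 CPM with naloxone, and 44.9, 67.6 and 46.6 CPM in Control. Within codes it lay above the Control library in 6 of 6 ligand libraries of code A, 4 of 5 of code B and 4 of 4 of code C. Beta-endorphin had the highest log2 fold change, 0.88 (SE 0.33, edgeR adjusted p = 0.513), which did not pass. The ligand libraries of a code are all set against 1 Control library, so these counts are not independent.

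CDKN1C was at 28.97, 32.3 and 45.4 CPM with morphine, 31.5, 29.2 and 38.7 CPM with metamorphine, 48.3, 48.4 and 28.7 CPM with TRV130, 23.5, 26.9 and 33.7 CPM with beta-endorphin, 28.9, 23.7 and 40.2 CPM with naloxone, and 47.1, 30.3 and 47.8 CPM in Control. Its log2 fold change for beta-endorphin was -0.57 (SE 0.26, edgeR adjusted p = 0.513), and it lay above the same-code Control library in 3 of 15 ligand libraries. TK1 was at 43.7, 30.2 and 45.5 CPM with morphine, 43.5, 33.2 and 39.0 CPM with metamorphine, 64.2, 63.9 and 29.2 CPM with TRV130, 56.1, 29.3 and 39.7 CPM with beta-endorphin, 49.6, 25.6 and 46.5 CPM with naloxone, and 88.0, 27.3 and 53.4 CPM in Control. The Control value of 88.0 CPM, from code A, was the highest of all 18, and the log2 fold changes of TK1 lay between -0.54 and -0.10 without passing.

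CDC45 was at 23.2, 16.8 and 22.5 CPM with morphine, 23.3, 17.0 and 19.3 CPM with metamorphine, 38.6, 30.4 and 16.0 CPM with TRV130, 26.0, 16.5 and 19.98 CPM with beta-endorphin, 28.5, 15.2 and 20.4 CPM with naloxone, and 47.5, 17.8 and 20.97 CPM in Control. Without Control 1, which held 47.5 CPM, its value for metamorphine was 0.03, against -0.53 with it. UHRF1 lay above the Control library in 6 of 6 ligand libraries of code A and in 0 of 5 of code B, and its log2 fold changes were between 0.07 and 0.42. CCNE2, with 6.43 to 14.5 CPM over all libraries, had log2 fold changes between -0.37 and 0.02. None of these passed.

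Within codes, the 44 genes did not move one way. Measured as ligand minus Control in log2 CPM, the median over the 44 genes in code A was -0.16 for morphine, -0.12 for metamorphine, -0.10 and -0.006 for the 2 TRV130 libraries, 0.12 for beta-endorphin and -0.23 for naloxone. In code B it lay above 0 for each ligand, between 0.03 for naloxone and 0.32 for metamorphine. In code C it lay below 0 for each ligand, between -0.21 for morphine and -0.10 for naloxone. Each of these sets rests on 1 Control library, and the part of that library in them was not tested.

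The Control libraries differed from ligand libraries of their code in relation to transcript length. For Control 1, of code A, against the mean of the morphine, metamorphine, beta-endorphin and naloxone libraries of that code, the log2 CPM difference of the 44 genes had a Spearman correlation of -0.75 with transcript length, and over 10519 coding genes it was -0.70. Set against the same 4 ligands of their codes, Control 3 had -0.51 and -0.60, and Control 2 had -0.32 and -0.27. With GC content, Control 2 had the stronger correlations, 0.58 and 0.59. Those of Control 1 were 0.39 and 0.42, and those of Control 3 were -0.015 and 0.15. In Control 1 the 5 genes of at least 5000 bases had a median difference of -0.63, and the 39 shorter ones 0.13. MKI67 was lowest at -1.22, and CENPF, TOP2A and CENPE were also below 0. AURKB, CDC45 and TK1, with short transcripts, were highest, at 1.00, 0.91 and 0.87. The 2 TRV130 libraries of code A, set against the same 4 ligand libraries, had correlations of -0.56 and -0.59 over the 44 genes. Over the coding genes theirs were -0.61 and -0.67, the second near that of Control 1.

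**Figure D5:**
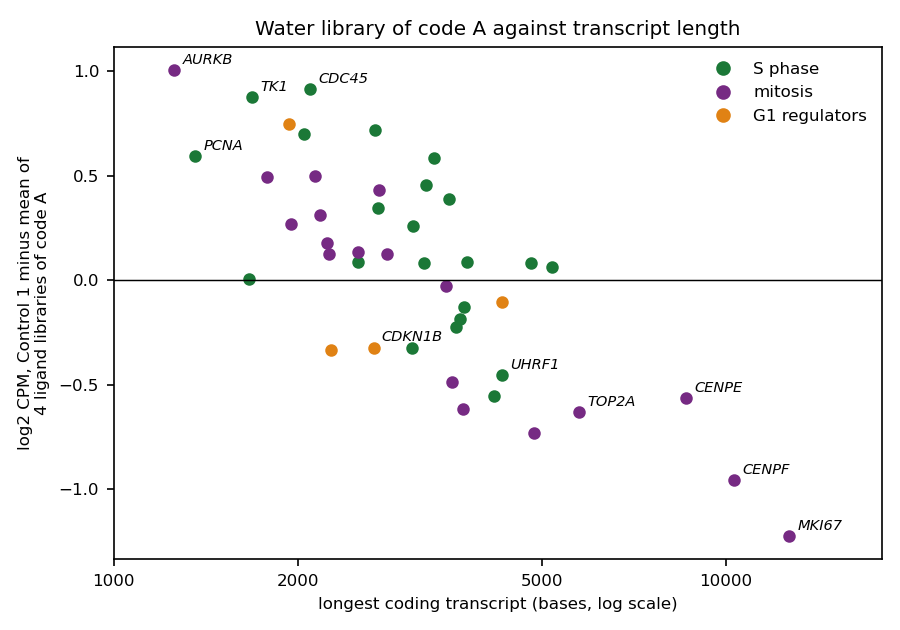
Each point is 1 of the 44 genes, with the length of its longest coding transcript on a log axis and, on the vertical axis, its log2 CPM in Control 1 minus the mean of 4 ligand libraries of code A; colour gives the phase. The points slope downward, with AURKB at 1.00 at the short end and MKI67 at -1.22 at the long end.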

How the data were processed

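RNA from 18 libraries was sequenced without strand information, per the labels' protocols. The deposited file holds raw counts of reads per gene, as whole numbers whose totals differ between libraries. The submitters' processing notes name the GRCh38 (hg38) build, HISAT2, featureCounts, FastQC and DESeq2. Versions, settings and the gene annotation: not given in the sources used here. Without strand, reads of genes that overlap on opposite strands cannot be told apart, and how reads of near-identical copies were counted is unknown.

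The counts were tested with edgeR 4.0.16 (R 4.3.3): filterByExpr at a minimum count of 10, TMM scaling, and the robust quasi-likelihood test on all 18 libraries. Ligands were each set against Control with 1 mean per group. Codes were compared with the treatment in the model. Two-sided p-values were adjusted by Benjamini-Hochberg over 23231 genes, with a threshold of 0.05. The model of groups alone had a biological coefficient of variation of 0.309, and that of groups and code 0.182. Log2 CPM used a prior count of 2, and standard errors were derived from the F statistic. Symbols, lengths and positions came from GENCODE 29, and promoter windows from RefSeq. No column was left unused. No libraries were identical. The scripts were tested on simulated counts.

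The 44 genes and all lists were chosen with earlier results of these data known. In each role, the 3 genes with the smallest p between codes and the 1 with the smallest p between treatments were given, with others named in passing. Their values are by library, by range or by fold change. From the other lists, examples were taken from the 4 genes with the smallest p in a comparison. Alternatives were RLE scaling, no filter, DESeq2 1.42.0, the compared groups alone, no treatment term, blocks for replicate number or code, no TRV130 libraries, and each library left out. The length and GC offset, coding genes alone, and fits without Control 1 and TRV130 were added after the data were seen.

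Replicate numbers 1, 2 and 3 carry codes A, B and C in every group except TRV130. Deviations from group means correlated between same-numbered naloxone and Control libraries at 0.25, 0.73 and 0.70, at numbers 2 and 3 the highest of any ligand. For morphine the values were -0.26, 0.43 and 0.39. TRV130 2 and 3, whose codes differ from those of the same-numbered Control libraries, had -0.53 and -0.18. Same-numbered libraries outside TRV130 thus paired at numbers 2 and 3, and less clearly at number 1.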

Additional observations from a re-analysis of the deposited data

Results flagged for a closer look

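Among 66 combinations of 22 named genes and 3 codes, 8 held a library far from the others of its code by Dixon's criterion, and chance gives about 1 in 20. Beta-endorphin 1 was the highest library of code A for FOXM1 (98.1 CPM), RRM2 (88.8 CPM) and TYMS (114 CPM). Metamorphine 2 was the highest of code B for TYMS (71.7 CPM) and E2F1 (60.6 CPM). Control 1 was the lowest of code A for CENPF (57.9 CPM) and UHRF1 (48.6 CPM), whose coding transcripts have 10307 and 4309 bases. Control 3 was the highest of code C for CCNE2 (12.2 CPM).

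Ligand libraries stood on opposite sides of Control in different codes, and these differences were not tested. UHRF1 lay above Control in 6 of 6 ligand libraries of code A and below it in 5 of 5 of code B. The median ligand minus Control difference over the 44 genes was at least 0.03 (0.031) in every ligand library of code B and at most -0.096 in every one of code C. Over the mitosis genes it was at least 0.218 in code B and at most -0.089 in code C. All ligand libraries of a code share its 1 Control library.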

How the results depend on the processing

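The counts of called genes among the 44 stayed within 1.5 times in all alternatives run. With each library left out in turn, ligand comparisons gave 0, code B against A gave 31 to 35, code C against A 11 to 18, code C against B 28 to 33, and any code 37 to 40. Over all genes, the same fits called 0, 2520 to 7769, 4819 to 8947, 11089 to 14098 and 11591 to 14643. With all libraries, the 4 code tests called 6256, 7709, 12719 and 13420 of 23231. Without the low-count filter, code C against A split into 8 higher and 8 lower, against 4 and 11 with it. Over all genes, code B against A fell to 1862 calls (8.12%) without the TRV130 libraries and to 2144 (9.16%) without Control 1 as well, against 6256.

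Of 79 called differences of single genes between codes, 56 kept their call in every alternative, and over 2054 refits 118 lost it and 3 changed sign. The 3 were, with the length and GC offset, RRM1 (-0.021), CDC25C (-0.17) and AURKB (-0.105), all for code C against B. CDC45 changed sign for metamorphine against Control without Control 1 (0.033), and stood as low as -0.781 without Control 2, passing in neither. CDC6 for code C against A, close to the threshold, lost its call in most fits with a library left out, and CDC45 did so for code C against B in 8 of them. That CDC45 call also ended with RLE scaling (0.326), DESeq2 (0.327), no treatment term (0.311), coding genes alone (0.304) and without the TRV130 libraries (0.318). Causes other than the settings themselves were not tested.

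With the replicate number as a block, 0 of the 44 were called in each ligand comparison and for any treatment difference, and 0 with the code as a block. The smallest edgeR adjusted p was 0.351 with the replicate block (beta-endorphin) and 0.134 with the code block (beta-endorphin). The block changed no call among the 44 genes. Counts of all genes called at the adjusted threshold with a block are not given here. With the code block, 2, 6, 1, 9 and 4 of the 44 had an unadjusted p under 0.05 for morphine, metamorphine, TRV130, beta-endorphin and naloxone, against 14.7%, 23.6%, 4.46%, 27.8% and 22.5% of all genes. Same-numbered libraries of Control and morphine, metamorphine, beta-endorphin and TRV130 did not all correlate above 0.1 (-0.26, -0.05, 0.10 and 0.46 for number 1). Depth was not low for any of the 44 genes: the lowest count in a library was 127 (CDC25C).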
